A study of Mus musculus with 16 samples.

Results

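The 10 genes described here were the immediate early genes Fos, Fosb, Jun, Junb, Jund, Egr1, Atf3, Ier2, Dusp1 and Klf4, taken by name from the 24411 genes of the count table. Each of the 10 was found once and passed the filter on low counts in every comparison. They were measured by RNA-seq in 16 libraries of muscle stem cells (MuSCs), in 4 groups of 4 libraries. Control and TRF2 MuSC-cKO MuSCs were taken from uninjured muscle and from muscle at 3 days postinjury (3 DPI), where 10 µl of notexin, a snake venom toxin that destroys myofibers, had been injected into the tibialis anterior (TA) muscle. The TRF2 MuSC-cKO mice carry floxed TRF2 (the gene Terf2, which encodes a telomere-binding protein) and Pax7CreERT2, so that tamoxifen deletes the gene in cells expressing Pax7. The sample records call the controls wild type, and which of these alleles the controls carried, whether they received tamoxifen and which animals each library came from are not given in the sources used here. All mice had a C57BL/6 background, tamoxifen injections began at 8 to 10 weeks of age, and MuSCs of both states were taken from mice aged 3 months where an age is given. Cells were released from hindlimb muscle with collagenase and dispase at body temperature and sorted as CD45-/CD31-/CD11b-/Sca1- cells positive for α7-integrin and for VCAM or CD34. Biological replicates were used throughout the study, but the sample records do not tie a library to an animal, and the p-values below measure the spread between libraries.

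Immediate early genes are transcribed within minutes of a stimulus, without new protein synthesis, when kinase cascades activate factors already bound at their promoters. FOS and JUN proteins pair to form the transcription factor AP-1, EGR1 is a zinc finger activator that binds GC-rich sites, and DUSP1 is a phosphatase that switches the kinases off again. In skeletal muscle these genes are known both for the early activation of MuSCs and for a rapid response to the enzymatic release of cells from the tissue, and both can be recorded in sorted cells.

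The promoters of these genes are shown because short elements near the start site are what rapid induction acts through. Each sequence is 120 bases of mouse build GRCm38.p6 from the RefSeq promoter table, written 5′ to 3′ on the strand of the gene, where position -1 is the base before the RefSeq start. Windows of 250 bases before to 50 after the start were given for 8 of the 10 genes, all but Egr1 and Ier2, and were searched on both strands. Capitals mark TGACG, which is part of the cAMP response element (CRE) TGACGTCA, or the AP-1-like element TGACNTCA, of which the CRE is also a match. In Atf3 the capitals are TGACG read on the opposite strand. Fos is shown from chr12:85473770-85473889, Fosb from chr7:19310046-19310165, Jun from chr4:95052223-95052342, Junb from chr8:84978749-84978868, Atf3 from chr1:191183334-191183453 and Dusp1 from chr17:26508563-26508682, the last ending 91 bases before the start and the others at the base before it. Fos is on the plus strand and the other genes are on the minus strand.
Fos: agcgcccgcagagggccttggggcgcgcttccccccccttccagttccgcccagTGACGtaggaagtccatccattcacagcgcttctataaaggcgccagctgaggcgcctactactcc
Fosb: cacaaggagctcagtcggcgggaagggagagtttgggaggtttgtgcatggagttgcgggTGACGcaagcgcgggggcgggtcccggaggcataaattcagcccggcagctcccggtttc
Jun: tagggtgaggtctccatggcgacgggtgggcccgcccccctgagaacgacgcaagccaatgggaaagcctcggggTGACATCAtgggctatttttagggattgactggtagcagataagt
Junb: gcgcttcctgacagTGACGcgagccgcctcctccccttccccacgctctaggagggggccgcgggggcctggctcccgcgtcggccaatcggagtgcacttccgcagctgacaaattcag
Atf3: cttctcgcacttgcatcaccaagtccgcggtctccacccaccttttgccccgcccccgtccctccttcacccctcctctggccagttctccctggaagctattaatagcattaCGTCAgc
Dusp1: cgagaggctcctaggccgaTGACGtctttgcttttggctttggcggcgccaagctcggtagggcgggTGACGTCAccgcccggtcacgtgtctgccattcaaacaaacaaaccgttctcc
TGACG was in 6 of the 8 windows (Fos, Fosb, Junb, Atf3, Dusp1 and Klf4) and in 20.8% of all 32851 windows of the table. The whole CRE was in the Dusp1 window alone, from -143 to -136, and in 1.79% of all windows. TGACNTCA was in the Jun window from -45 to -38 and in Dusp1, where it is the CRE, and in 8.83% of all windows. The AP-1 element TGANTCA was in none of the 8 windows and in 7.81% of all, and the CArG box was in none of the 8 and in 1.63% of all. The EGR element GCGNGGGCG was in Fosb and Klf4, and in 5.55% of all windows. Each match is a description of letters in the window and not a measured site. Sequence more than 250 bases upstream, and the promoters of Egr1 and Ier2, were not searched. An element missing from the windows, the CArG box included, may therefore be present near these genes. The RefSeq start of Atf3 is at base 191183333, inside a GENCODE gene that begins at 191218039, that of Dusp1 is at 26508472, inside a gene that begins at 26562128, and that of Jund is 1210 bases upstream of its GENCODE gene.

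Terf2, the deleted gene, was measured first. Its level in CPM (counts relative to the library total, scaled by TMM over the 16 libraries, as for all CPM here) was 71.5, 94.5, 66.3 and 73.1 in uninjured control and 49.7, 46.8, 58.7 and 27.2 in uninjured TRF2 MuSC-cKO MuSCs. At 3 DPI it was 35.5, 48.6, 48.2 and 42.8 in control and 52.6, 21.9, 66.9 and 89.7 in the libraries labelled TRF2 MuSC-cKO. The 3 DPI values rest on 23 to 52 estimated counts per library in control and 19 to 77 in TRF2 MuSC-cKO. Counts are for the whole gene, and the part of RNA from other cell types in them was not tested. Uninjured TRF2 MuSC-cKO libraries were all below the controls, but the difference was not called (log2 fold change -0.62 ± 0.27 SE, adjusted p = 0.199), and at 3 DPI the groups overlapped with a mean above the control (0.44 ± 0.42, adjusted p = 0.755). The genotype at 3 DPI is therefore given by label, and TRF2 MuSC-cKO at 3 DPI below means the libraries so labelled. Library totals were 620506 to 1351130 estimated counts, a member had at least 24 counts in every library, and replicate 3 of TRF2 MuSC-cKO at 3 DPI stood apart with 15387 genes detected against at least 19996 in the others.

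The cell type label was checked against markers. The summed level of 10 MuSC markers was 4172 to 6183 CPM in uninjured control, 2295 to 3320 in uninjured TRF2 MuSC-cKO, 1049 to 1297 in control at 3 DPI and 452 to 678 in TRF2 MuSC-cKO at 3 DPI. No MuSC marker was at 0 in every library of a group, and the sum was lower after injury and in TRF2 MuSC-cKO without overlap. The sum of 12 macrophage and other myeloid markers was 89.3 to 128 CPM in uninjured control, 136 to 202 in uninjured TRF2 MuSC-cKO, 5295 to 6679 in control at 3 DPI and 2272 to 6097 in TRF2 MuSC-cKO at 3 DPI, although the sort gates remove CD45+ and CD11b+ cells. The value of 2272 was that of replicate 3, the library that stood apart, and the rest of that group was at 4600 to 6097. Of the 12, S100a9 was at 0 in every TRF2 MuSC-cKO library at 3 DPI and no marker was at 0 throughout another group. In the control injury comparison 9 of 10 MuSC markers were called lower (Pax7 -2.94 ± 0.21), the other, Cxcr4, was called higher (0.85 ± 0.20), and 10 of 10 tested myeloid markers were called higher (Lyz2 8.77 ± 0.31). Over all genes tested in that comparison 9.46% were called lower and 10.8% higher. The sum of 8 fibroadipogenic markers was 5881 to 8862 CPM in uninjured control, 1741 to 2664 in uninjured TRF2 MuSC-cKO, 3269 to 4768 in control at 3 DPI and 2183 to 4746 in TRF2 MuSC-cKO at 3 DPI. Most of the uninjured sum was the collagen gene Col3a1, at a mean of 5314 CPM in control and 1114 in TRF2 MuSC-cKO. Of 7 tested by genotype in uninjured muscle, 3 were called lower (Col3a1, Dpt and Gsn), Dcn was called higher (a mean of 109 against 51.6 CPM) and the median log2 fold change was 0.64. With injury in control 5 of the 8 were called higher (Cd248, Ly6a, Pdgfra, Lum and Dcn) and the same 3 lower, with a median of 1.61. Of 5 mural cell markers, 2 were called higher in uninjured TRF2 MuSC-cKO (Rgs5 1.33 ± 0.35, adjusted p = 0.0144 by edgeR, held in 8 of 21 alternative settings, and Cspg4 0.88 ± 0.23, adjusted p = 0.0173, held in 7 of 21) and their median was 0.70, while their sums overlapped at 782 to 1151 CPM in control and 690 to 1723 in TRF2 MuSC-cKO. Of the endothelial, Schwann cell and myofiber markers tested in that comparison, Ncam1 was called lower (-0.78 ± 0.19) and no other was called by edgeR. The Ncam1 call held in 12 of 21 alternative settings and was not made by limma's robust fit. Ncam1 was the lowest of the 4 Schwann cell markers tested, whose median was 0.45 and highest value 0.74, with 2 of the 4 at an unadjusted p under 0.05. Over all 14048 genes tested by genotype in uninjured muscle, 370 were called lower and 82 higher. The part of cell composition in the changes of the immediate early genes was not tested, and in bulk RNA fewer cells of a type and less RNA per cell cannot be told apart.

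Injury came with lower levels of most of the 10 genes in both genotypes. In control MuSCs 7 genes fell (Egr1, Ier2, Fos, Jun, Fosb, Jund and Junb), 1 rose (Atf3) and 2 were not called (Klf4 and Dusp1), with calls made at an adjusted p under 0.02 and a change over 1.5-fold in edgeR's quasi-likelihood test. Of all 15356 genes tested, 9.46% were called lower and 10.8% higher. In TRF2 MuSC-cKO MuSCs the same 7 genes fell and the other 3 were not called, where 1.61% of 14578 genes, or 235, were called lower. Without replicate 3 of TRF2 MuSC-cKO at 3 DPI, the library that stood apart, the same 7 genes fell and 513 of 15547 genes were called lower. The median log2 fold change of the 10 genes was -2.22 in control and -2.25 in TRF2 MuSC-cKO, against 0.066 and 0.0071 over all genes tested. Together the 10 genes held 2.32 to 2.63% of all counts in uninjured control libraries, 1.80 to 2.50% in uninjured TRF2 MuSC-cKO, 0.433 to 0.554% in control at 3 DPI and 0.368 to 0.433% in TRF2 MuSC-cKO at 3 DPI.

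**Figure D1:**
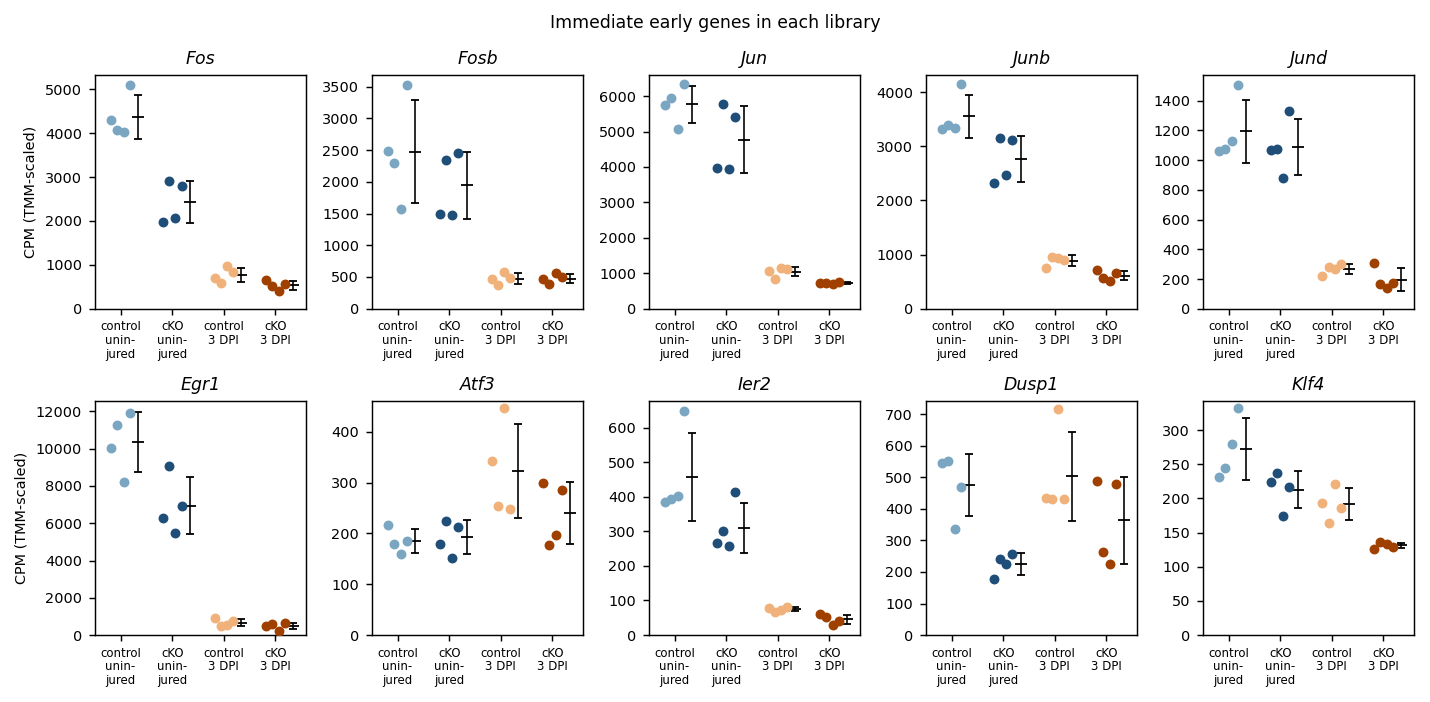
Level of each gene in CPM (vertical axis from 0, scaled by TMM over the 16 libraries) in the 4 groups of 4 libraries; points are libraries in order of replicate number, and the bars beside them are the mean ± SD. For Fos, Fosb, Jun, Junb, Jund, Egr1 and Ier2 every uninjured library lies above every 3 DPI library, whereas Atf3 and Dusp1 at 3 DPI overlap with or exceed the uninjured libraries.

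Fos encodes the founding FOS subunit of AP-1, which binds DNA when paired with a JUN protein. In GRCm38 (GENCODE M21, as all positions here) it spans chr12:85473890-85477273 on the plus strand. Its level was 4306, 4075, 4024 and 5102 CPM in uninjured control MuSCs and 690.3, 596, 969.7 and 834 CPM in control MuSCs at 3 DPI. It was 1981, 2919, 2077 and 2785 CPM in uninjured TRF2 MuSC-cKO and 651, 513, 413 and 558 CPM at 3 DPI. Every uninjured library was above every injured one, and every uninjured control library was above every uninjured TRF2 MuSC-cKO library. Fos fell 5.50-fold with injury in control (log2 fold change -2.46 ± 0.20, adjusted p = 8.63e-14) and 4.78-fold in TRF2 MuSC-cKO (-2.26 ± 0.23, adjusted p = 3.77e-05). Each fold change comes from a fit of the 8 libraries compared, scaled among themselves, and can differ from the ratio of the CPM values. In uninjured muscle Fos was 1.65-fold lower in TRF2 MuSC-cKO (-0.72 ± 0.19, adjusted p = 0.0145), a call that held in 9 of 21 alternative settings, where the adjusted p ran from 0.000136 to 0.0800, and in 2 of the 8 fits that leave out 1 library. It was lost without control replicate 1, 2 or 4 or TRF2 MuSC-cKO replicate 1, 3 or 4, at adjusted p-values of 0.0211 to 0.0748. At 3 DPI the genotypes overlapped (-0.49 ± 0.22, adjusted p = 0.524).

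Fosb (chr7:19302696-19310051, minus strand), a paralog of Fos in the same subunit family, was at 2489, 2304, 1575 and 3532 CPM in uninjured control MuSCs and at 462, 369, 580.3 and 489 CPM at 3 DPI. In TRF2 MuSC-cKO it was at 1498, 2336, 1476 and 2458 CPM in uninjured muscle and at 469, 382, 557 and 494 CPM at 3 DPI. The states of injury did not overlap in either genotype, while the genotypes overlapped in both states, and the uninjured control libraries spread 2.24-fold from lowest to highest. Fosb fell 5.04-fold with injury in control (-2.33 ± 0.21, adjusted p = 2.77e-12) and 4.26-fold in TRF2 MuSC-cKO (-2.09 ± 0.25, adjusted p = 0.000128). The latter call held in 20 of 21 alternative settings, whose log2 fold changes ran from -2.26 to -1.85. It was lost with the record code of the libraries, described below, as a term. Between genotypes it differed by -0.22 ± 0.21 in uninjured muscle (adjusted p = 0.590) and by 0.050 ± 0.22 at 3 DPI (adjusted p = 0.957), a sign that flipped to -0.044 with no filter on low counts.

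Jun (chr4:95049034-95052222, minus strand) encodes the JUN subunit, the partner that lets AP-1 bind DNA and that kinases of the JNK family phosphorylate. Its level in control MuSCs was 5734, 5937, 5066 and 6327 CPM uninjured and 1064, 849.9, 1157 and 1115 CPM at 3 DPI. The TRF2 MuSC-cKO libraries had 3973, 5773, 3948 and 5404 CPM uninjured and 733, 729, 705 and 753 CPM at 3 DPI. Jun fell 5.35-fold with injury in control (-2.42 ± 0.19, adjusted p = 4.71e-14) and 6.82-fold in TRF2 MuSC-cKO (-2.77 ± 0.22, adjusted p = 3.87e-06), with no overlap in either. The genotypes overlapped in uninjured muscle (-0.15 ± 0.19, adjusted p = 0.695, and 0.034 when scaled by library size alone). At 3 DPI all 4 libraries labelled TRF2 MuSC-cKO were below all 4 controls, at a coefficient of variation of 2.65% in the former, but the difference was not called (-0.47 ± 0.19, adjusted p = 0.514).

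Junb (chr8:84974484-84978718, minus strand) encodes a JUN family subunit that can restrain growth genes driven by JUN. In control MuSCs it was at 3329.9, 3393, 3343 and 4146 CPM uninjured and at 746, 965, 944 and 894.5 CPM at 3 DPI. In TRF2 MuSC-cKO it was at 2332, 3148, 2470.4 and 3111 CPM uninjured and at 714, 571, 512 and 658 CPM at 3 DPI. In CPM, Junb was the only gene of the 10 whose groups did not overlap in any neighbouring pair. From the top the order was uninjured control, uninjured TRF2 MuSC-cKO, control at 3 DPI and TRF2 MuSC-cKO at 3 DPI. Per length, a measure described below, the uninjured genotypes overlapped, at 4095 to 4783 in control and 3867 to 4749 in TRF2 MuSC-cKO. How many of all genes have such an order was not counted. Junb fell 3.89-fold with injury in control (-1.96 ± 0.19, adjusted p = 1.11e-11) and 4.71-fold in TRF2 MuSC-cKO (-2.24 ± 0.22, adjusted p = 2.50e-05). The genotype differences were -0.24 ± 0.18 in uninjured muscle (adjusted p = 0.499) and -0.49 ± 0.20 at 3 DPI (adjusted p = 0.514), neither called.

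Jund (chr8:70698949-70700616, plus strand) encodes the JUN subunit with the most constant expression in many cell types. Control libraries were at 1060.5, 1078, 1129 and 1507 CPM uninjured and at 222, 280.1, 270.5 and 300.4 CPM at 3 DPI. The TRF2 MuSC-cKO libraries were at 1069.9, 1072, 877 and 1332 CPM uninjured and at 309.6, 167, 136 and 170.1 CPM at 3 DPI. Jund fell 4.31-fold with injury in control (-2.11 ± 0.19, adjusted p = 4.02e-12) and 5.82-fold in TRF2 MuSC-cKO (-2.54 ± 0.28, adjusted p = 7.08e-05). Its genotype difference in uninjured muscle was the smallest of the 10 in size at -0.0098 ± 0.19 (adjusted p = 0.983), with a sign that depended on the scaling, and at 3 DPI it was -0.42 ± 0.26 (adjusted p = 0.642) with 1 library labelled TRF2 MuSC-cKO above all controls. Jun, Junb, Jund and Ier2 are each transcribed from a single exon, and Jun, Junb and Jund lie opposite another annotated gene (Junos, Prdx2 and Gm11175). The kit keeps strand, but the strand setting of the counting is not given in the sources used here, so reads of these genes and of their antisense partners may not be separated.

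Egr1 (chr18:34859823-34864984, plus strand) encodes a zinc finger activator induced by growth factors and by mechanical or cellular stress, and had the highest level per length of the 10 in uninjured muscle. In control MuSCs it was at 10066, 11264, 8209 and 11902 CPM uninjured and at 893, 468, 551 and 769 CPM at 3 DPI. In TRF2 MuSC-cKO it was at 6281, 9082, 5468 and 6949 CPM uninjured and at 474, 567, 228 and 645 CPM at 3 DPI. Egr1 alone took 0.776 to 0.971% of all counts in uninjured control libraries and 0.0456 to 0.0931% at 3 DPI. It fell with injury in control (-3.91 ± 0.22, adjusted p = 1.46e-18) and in TRF2 MuSC-cKO (-3.92 ± 0.32, adjusted p = 5.76e-06). Ordered from the lowest fold change, Egr1 was gene 3 of 15356 in control and gene 7 of 14578 in TRF2 MuSC-cKO. Its genotype differences were not called, at -0.45 ± 0.19 in uninjured muscle (adjusted p = 0.169) and -0.45 ± 0.31 at 3 DPI (adjusted p = 0.673), with overlapping groups in both.

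Atf3 (chr1:191170296-191218039, minus strand) encodes a stress-induced factor of the ATF/CREB family that pairs with JUN proteins and was the only gene of the 10 called higher after injury. Control libraries were at 217, 179, 159 and 185 CPM uninjured and at 343, 255, 446.5 and 249 CPM at 3 DPI. The TRF2 MuSC-cKO libraries were at 179.9, 225, 152 and 212 CPM uninjured and at 299, 178, 197 and 287 CPM at 3 DPI. The control groups did not overlap, whereas in TRF2 MuSC-cKO 2 of the 4 injured libraries lay within the uninjured range. Atf3 rose 1.79-fold with injury in control (0.84 ± 0.20, adjusted p = 0.00106), a call lost without control replicate 3 at 3 DPI (0.63, adjusted p = 0.0266) and held in 16 of 21 alternative settings, where the adjusted p ran from 2.22e-05 to 0.0643. The difference was 0.25 ± 0.25 in TRF2 MuSC-cKO (adjusted p = 0.715), and the test of whether the genotypes differed in this change gave -0.48 ± 0.34 (adjusted p = 0.940). The genotypes overlapped in uninjured muscle (0.18 ± 0.20, adjusted p = 0.646) and at 3 DPI (-0.39 ± 0.26, adjusted p = 0.665).

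Ier2 (chr8:84661331-84662852, minus strand) encodes a small nuclear protein of the immediate early response. In control MuSCs it was at 384, 393, 402 and 647 CPM uninjured and at 78.8, 67.1, 72.8 and 82.3 CPM at 3 DPI. In TRF2 MuSC-cKO it was at 265, 300.2, 259 and 414 CPM uninjured and at 59.6, 53.0, 29.8 and 41.9 CPM at 3 DPI. The injured libraries were far below the uninjured ones in both genotypes, and at 3 DPI every library labelled TRF2 MuSC-cKO was below every control. Ier2 fell with injury in control (-2.56 ± 0.21, adjusted p = 1.80e-13) and in TRF2 MuSC-cKO (-2.81 ± 0.29, adjusted p = 3.86e-05). Its genotype differences of -0.44 ± 0.20 in uninjured muscle (adjusted p = 0.221) and -0.66 ± 0.32 at 3 DPI (adjusted p = 0.538) were not called.

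Dusp1 encodes a dual-specificity phosphatase that inactivates MAP kinases and so closes the signal that induced it. Control libraries were at 545, 551, 337 and 469 CPM uninjured and at 434, 432, 716 and 432 CPM at 3 DPI. The TRF2 MuSC-cKO libraries were at 176, 242, 225 and 257 CPM uninjured and at 487, 263, 226 and 478 CPM at 3 DPI. Dusp1 was not called with injury, with differences of 0.13 ± 0.20 in control (adjusted p = 0.726) and 0.62 ± 0.28 in TRF2 MuSC-cKO (adjusted p = 0.283), and the control value flipped to -0.11 without replicate 3 at 3 DPI. In uninjured muscle Dusp1 was the gene of the 10 with the largest genotype difference in size. It was 1.94-fold lower in TRF2 MuSC-cKO (-0.95 ± 0.20, adjusted p = 0.00149), with all 4 libraries below all 4 controls, and the call held in 18 of 21 alternative settings (adjusted p from 2.94e-05 to 0.0516) and in all 8 fits that leave out 1 library. At 3 DPI the genotypes overlapped (-0.43 ± 0.29, adjusted p = 0.661). The GENCODE gene (chr17:26505590-26562128, minus strand) overlaps AC122252.4 and AC122252.1 on its own strand and Gm8225 and Ergic1 on the other, so its reads may be shared with them.

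Klf4 (chr4:55527143-55532466, minus strand) encodes a zinc finger factor that takes part in differentiation and in the maintenance of stem cells, and had the lowest level per length of the 10 in uninjured muscle. In control MuSCs it was at 231, 245, 279 and 332 CPM uninjured and at 193, 164, 221 and 186 CPM at 3 DPI. In TRF2 MuSC-cKO it was at 224, 237, 175 and 217 CPM uninjured and at 126, 136, 133 and 129 CPM at 3 DPI. The injured libraries were all below the uninjured ones in each genotype, by less than for the genes called, at -0.47 ± 0.19 in control (adjusted p = 0.0683) and -0.76 ± 0.23 in TRF2 MuSC-cKO (adjusted p = 0.0693). At 3 DPI the libraries labelled TRF2 MuSC-cKO were all below the controls (-0.50 ± 0.21, adjusted p = 0.520), and in uninjured muscle the genotypes overlapped (-0.23 ± 0.19, adjusted p = 0.543).

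**Figure D2:**
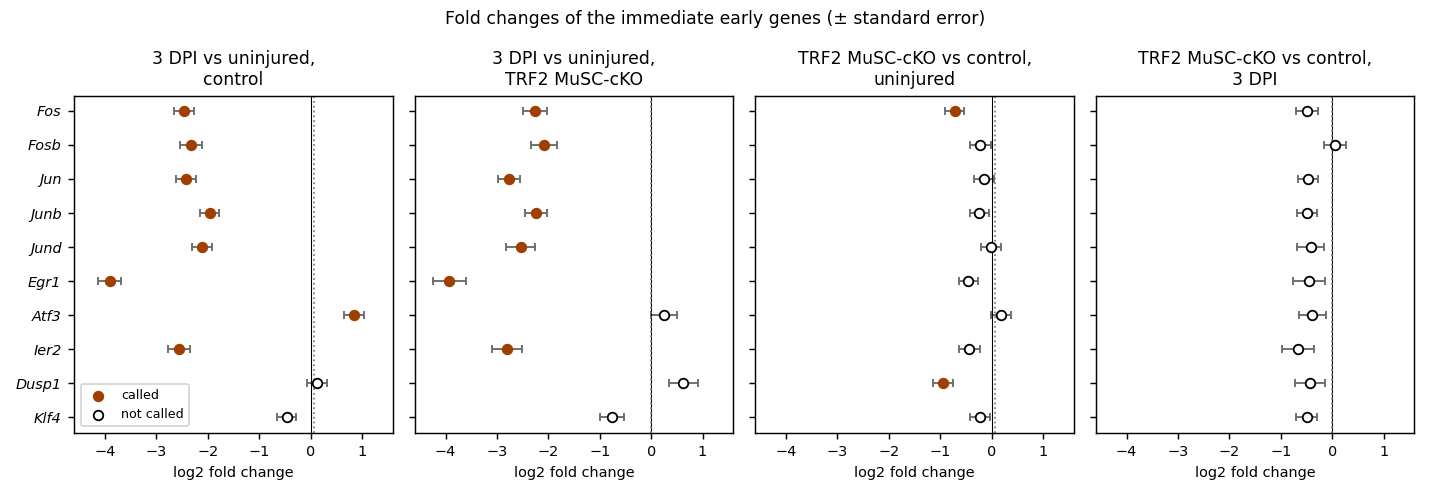
Log2 fold change of each gene (horizontal axis, point ± standard error) in the 4 comparisons of 4 against 4 libraries; filled points were called, the solid line is no change and the dotted line is the median of all genes tested. The same 7 genes lie between -3.92 and -1.96 after injury in both genotypes, whereas the genotype differences lie between -0.95 and 0.18.

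By genotype, few of the 10 genes were called. In uninjured muscle 2 of the 10 were called lower (Fos and Dusp1), where 2.63% of 14048 genes were called lower. In CPM, 3 of the 10 had every TRF2 MuSC-cKO library below every control (Fos, Dusp1 and Junb), as had 9.18% of all genes tested. Per length the genotypes overlapped for Junb. The estimate was below 0 for 9 of 10, all but Atf3, with a median of -0.23 against 0.058 over all genes. Over all genes the calls were 370 lower and 82 higher, or 212 and 176 when scaled by library size alone, where the median of the 10 genes was -0.045 and that of all genes 0.24. At 3 DPI edgeR called 0 of the 10 and 0.0% of 14559 genes. Unadjusted p-values were under 0.05 for 4 of the 10 (Fos, Jun, Junb and Klf4), all lower, as for 3.58% of all genes in that direction, and limma's robust fit, limma-voom and DESeq2 called 0 of the 10 and 28, 0 and 7 genes in all. Without replicate 3 of TRF2 MuSC-cKO edgeR called 16 of 15430 genes and again 0 of the 10. Every library labelled TRF2 MuSC-cKO was below every control for 4 of the 10 (Jun, Junb, Ier2 and Klf4), as for 4.87% of all genes, and the estimate was below 0 for 9 of 10, all but Fosb, with a median of -0.46 against 0.0014.

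The sample records carry a code for each library whose meaning they do not give, and the codes are unevenly spread. The uninjured libraries carry JH135 in 3 controls and JH134 in 3 TRF2 MuSC-cKO libraries, and replicate 4 of each carries JH140 and JH139, so that code and genotype cannot be told apart in uninjured muscle. An edgeR fit of the 3 libraries of JH135 against the 3 of JH134 was an alternative chosen after seeing the data. Dusp1 was called lower in it (-1.06, adjusted p = 0.0105) and Fos was not (-0.73, adjusted p = 0.0615). Code and genotype coincide in that fit, so it cannot separate them and is no check on the code. At 3 DPI the code JH133 is shared by 2 controls and 2 TRF2 MuSC-cKO libraries, and in these the mean was lower in TRF2 MuSC-cKO for 9 of 10 genes, with log2 ratios of the mean CPM from -0.45 (Klf4) to 0.034 (Fosb) and a median of -0.35. The edgeR fit of these 4 libraries, also chosen after seeing the data, gave the 10 genes adjusted p-values of 0.894 (Klf4) to 0.996 (Fosb) and called 1 of 15502 genes in all, with a median log2 fold change of -0.34 for the 10 and 0.019 over all genes.

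Whether the genotypes differed in their change with injury was tested on all 16 libraries. None of the 10 genes was called by edgeR, limma's robust fit, limma-voom or DESeq2, and none had an unadjusted p under 0.05, where edgeR called 3 of 16822 genes, or 0.0178%. Without replicate 3 of TRF2 MuSC-cKO at 3 DPI it called 13 genes, and again 0 of the 10. The differences of the changes (TRF2 MuSC-cKO minus control) ran from -0.48 ± 0.34 for Atf3 to 0.61 ± 0.37 for Dusp1 (adjusted p = 0.911), with a median of -0.16. Their standard errors, 0.27 to 0.38, were as large as most of the differences. The injury and genotype comparisons share their groups of libraries, so their values stand side by side and are not independent of each other.

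Levels between genes were compared per length, as each gene's count in the table that the authors scaled by transcript abundance, set to the same total as CPM. In uninjured control MuSCs Egr1 led at 7578 ± 807 (SD, n = 4), followed by Fos (4775 ± 270.2), Junb (4443 ± 299) and Jun (4072 ± 151), of which neighbours overlapped. Lower in the order and apart from these stood Fosb (1450 ± 374), Jund (935 ± 123), Ier2 (694 ± 151) and Dusp1 (561 ± 106), again overlapping from neighbour to neighbour, and last Atf3 (215 ± 22.5) and Klf4 (202 ± 29.9), which overlapped with each other and not with Dusp1. In uninjured TRF2 MuSC-cKO, Egr1 again led (6376 ± 1242), and Fos (3323 ± 507) stood below Junb (4315 ± 467) and Jun (4213 ± 662), with ranges that overlapped between neighbours. At 3 DPI Junb led in both genotypes, at 1134 ± 74.2 in control and 897 ± 62.4 in TRF2 MuSC-cKO, and did not overlap with Fos, the next at 862 ± 156 and 679.5 ± 72.3. Egr1 was then number 5 in order (511 ± 182 and 407 ± 141), and Ier2 was last (118 ± 15.1 and 81.5 ± 18.4). The order of the means thus differed between uninjured and injured muscle, with Egr1 moving from the top to the middle and Dusp1 from 8 to 4 in both genotypes. At 3 DPI neighbours overlapped from Fos (number 2) down to Jund (number 8) in both genotypes. The places of Dusp1 and Egr1 among these are therefore not resolved.

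Among libraries of the same group the 10 genes tended to deviate in the same direction, as did some genes outside the list. When each log2 CPM value was taken as its deviation from the group mean, 44 of the 45 pairs of genes had a correlation above 0 over the 16 libraries, with a median r of 0.49 and a range from -0.019 (Dusp1 with Klf4) to 0.82 (Fosb with Jun). Fos followed the mean of the other 9 most closely (r = 0.92) and Klf4 least (r = 0.43). Over the 12205 genes whose log2 CPM averaged 4 or more, the median r with the mean deviation of the 10 was 0.17, and the points share libraries and with them depth, scaling and record codes. Genes most like the 10 by this measure were Fth1 (r = 0.90), Gnpat (0.90), Rplp1 (0.89) and Sptbn1 (0.88). Jun, the next member after Fos, had an r of 0.77 with the mean of the other 9. Correlations between pairs of genes were not measured over all genes, so the shared deviation is not shown to be particular to the 10. In uninjured muscle replicate 4 of the control and replicate 4 of TRF2 MuSC-cKO had 10 of 10 genes above their group's mean, by 0.26 and 0.21 on average on the log2 scale, and these are the libraries whose record code differs from the rest of their group. Deviations of like size were also seen in libraries that share their code with others of their group, at 0.20 in uninjured TRF2 MuSC-cKO replicate 2 and 0.25 in TRF2 MuSC-cKO replicate 1 at 3 DPI, each with 8 of 10 genes above the mean. The lowest was replicate 3 of TRF2 MuSC-cKO at 3 DPI, at -0.32 with 8 of 10 genes below the mean, which is the library with the fewest genes detected. The part of the record code and of gene detection in these deviations was not tested.

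**Figure D3:**
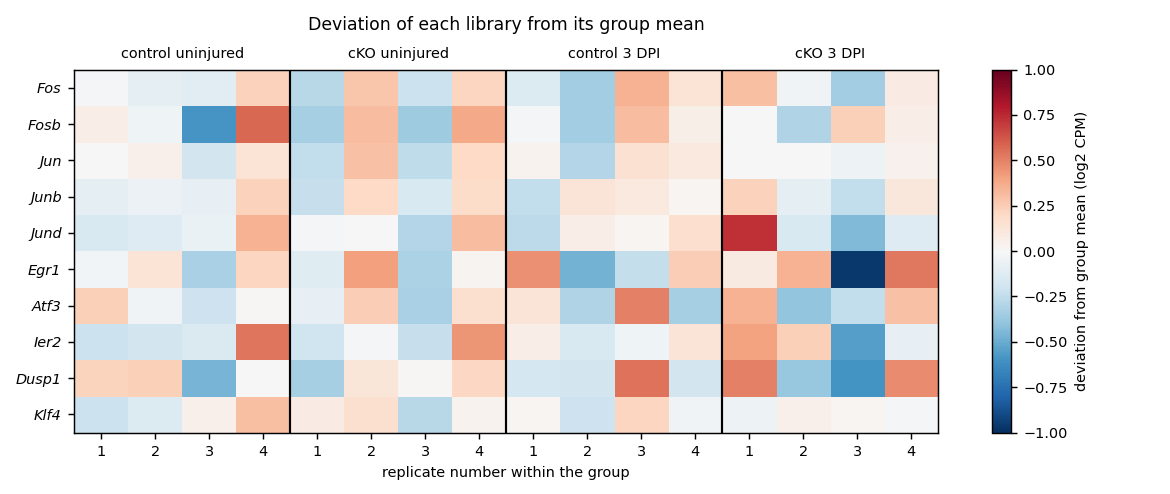
Deviation of each gene (rows) in each library (columns, grouped by the 4 groups and numbered by replicate) from the mean of its group, in log2 CPM from blue (below) to red (above). The columns of replicate 4 in both uninjured groups have all 10 genes above the group mean, and the column of replicate 3 in TRF2 MuSC-cKO at 3 DPI has 8 of 10 below it.

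Related genes, taken from lists of known family members and pathway components, were called in both directions with injury. Over all genes tested 9.46% were called lower and 10.8% higher in control, and 1.61% lower in TRF2 MuSC-cKO. Of 11 other AP-1 and MAF subunits tested in control MuSCs, 4 fell (Maff -1.87 ± 0.25, Mafk -1.45 ± 0.19, Atf2 -0.76 ± 0.23 and Atf7 -0.73 ± 0.19), 2 rose (among them Maf at 1.80 ± 0.23) and 5 were not called, among them Fosl1 at 0.80 ± 0.41 and Fosl2 at -0.61 ± 0.20. The call held in 13 of 21 alternative settings for Atf2 and in 17 of 21 for Atf7. The small MAF proteins encoded by Maff and Mafk lack an activation domain, and Maf is a large MAF factor that macrophages also express. The median of this list was -0.29, against -2.22 for the 10 genes and 0.066 over all genes. In TRF2 MuSC-cKO 1 of these subunits fell (Mafk -1.49 ± 0.29, held in 14 of 21 alternative settings) and 2 rose (among them Maf at 3.17 ± 0.39).

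Of 8 other EGR genes, NR4A orphan receptors and NAB corepressors, which bind EGR proteins, 2 fell with injury in control (Nr4a1 -1.83 ± 0.19 and Egr2 -0.99 ± 0.20) and 6 were not called, Nr4a3 among them at -0.64 ± 0.23 (adjusted p = 0.0362). In TRF2 MuSC-cKO edgeR called 0 of these 8, while limma's robust fit, limma-voom and DESeq2 each called 1 lower. By edgeR 1 of the 8 had an unadjusted p under 0.05, Nr4a1 at -1.02 ± 0.25 (adjusted p = 0.0244). In uninjured muscle Nr4a1, an orphan nuclear receptor of the same early response, was lower in TRF2 MuSC-cKO (-0.83 ± 0.19, adjusted p = 0.00528), at 491 ± 104 against 952 ± 106 CPM (SD, n = 4), and the call held in 15 of 21 alternative settings.

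Of 38 further immediate early and primary response genes, 11 fell and 12 rose with injury in control. Cebpd, a C/EBP transcription factor, and Btg2, an antiproliferative gene, fell most (-2.85 ± 0.21 each), while Ptgs2 (3.15 ± 0.36), which makes prostaglandins, Tnfaip3 (2.77 ± 0.22), an inhibitor of NF-kB signalling, and Ier5 (2.66 ± 0.24) rose most. The median of this list was 0.23. In TRF2 MuSC-cKO 5 of 37 fell and 2 rose, with Btg2 at -3.02 ± 0.37, Cebpd at -2.50 ± 0.32, Socs3, a feedback inhibitor of cytokine signalling, at -2.26 ± 0.28, Tnfaip3 at 2.46 ± 0.31 and Gadd45b, a stress sensor, at 1.64 ± 0.35, a call held in 12 of 21 alternative settings. In uninjured muscle Cyr61, a matricellular protein gene, was lower in TRF2 MuSC-cKO (-1.22 ± 0.20, adjusted p = 5.35e-05), and Ier5 was higher (1.21 ± 0.30, adjusted p = 0.00921), the latter held in 11 of 21 alternative settings.

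Upstream of these genes, 30 SRF, CREB and MAP kinase pathway genes were measured. In control 4 fell and 5 rose with injury, where 9.46% of all genes tested were called lower and 10.8% higher. The median of the list was 0.078, against 0.066 over all genes. Among those called were the kinase genes Rps6ka1 (2.03 ± 0.33), Mapkapk2 (1.31 ± 0.22) and Rps6ka5 (-1.66 ± 0.30) and the SRF partner Elk3 (1.14 ± 0.22). In TRF2 MuSC-cKO 2 fell (Rps6ka5 -2.42 ± 0.43 and the coactivator gene Crebbp -0.99 ± 0.23), the latter at an adjusted p of 0.019998 by edgeR and held in 6 of 21 alternative settings, where the adjusted p ran from 0.00147 to 0.512. Between genotypes in uninjured muscle edgeR called 0 of the 30, with 5 at an unadjusted p under 0.05, and limma's robust fit, limma-voom and DESeq2 called 1, 0 and 0. At 3 DPI no gene of these 4 lists was called by any of these tools, with 7 at an unadjusted p under 0.05.

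**Figure D4:**
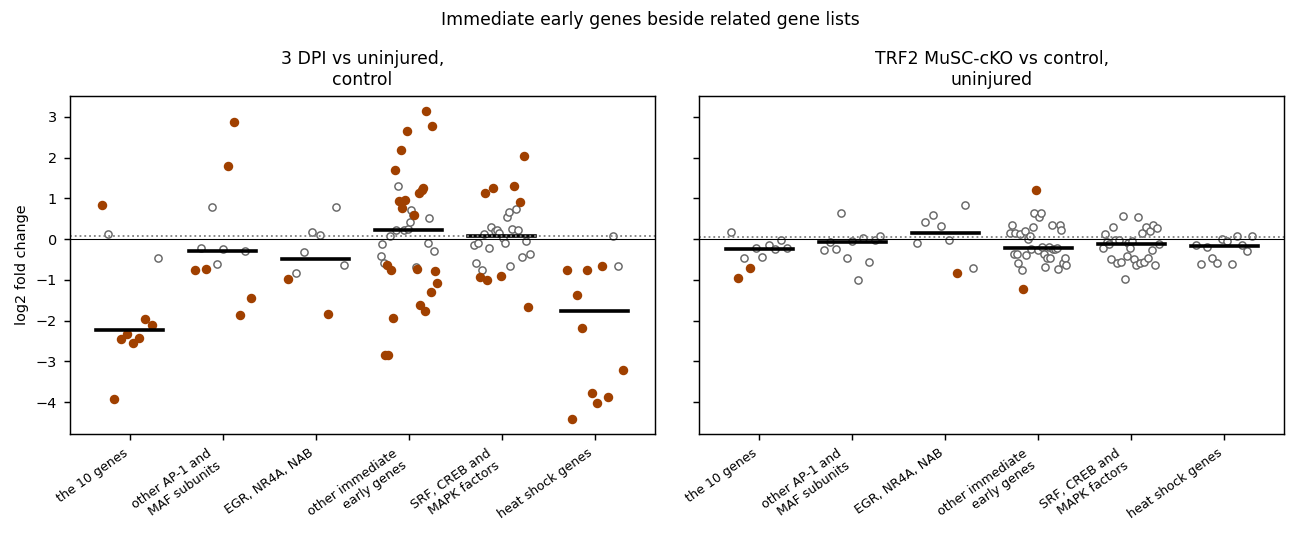
Log2 fold change (vertical axis) of each gene tested in 6 lists, with injury in control MuSCs (left) and by genotype in uninjured muscle (right); filled points were called, the bar is the median of the list and the dotted line is the median of all genes tested. With injury the medians are -2.22 for the 10 genes and -1.77 for the heat shock genes against -0.29, -0.48, 0.23 and 0.078 for the other lists.

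Heat shock genes, which like the immediate early genes respond to the release of cells from tissue, were measured as a list of 12. Their summed level was 50315 to 60434 CPM in uninjured control, 44530 to 59414 in uninjured TRF2 MuSC-cKO, 6348 to 7362 in control at 3 DPI and 2755 to 5602 in TRF2 MuSC-cKO at 3 DPI. The value of 2755 was that of replicate 3, the library with the fewest genes detected, and the rest of that group was at 5014 to 5602. The sums of uninjured and injured libraries were far apart in both genotypes, in the direction of the 7 immediate early genes that fell. With injury in control 10 of 12 fell, with Dnajb1 at -4.40 ± 0.23, Hspa1b at -4.02 ± 0.21, Hspb1 at -3.88 ± 0.22, Hspa1a at -3.77 ± 0.20 and Hsph1 at -3.22 ± 0.20, and in TRF2 MuSC-cKO 6 of 12 fell. Over all genes tested 9.46% were called lower in control and 1.61% in TRF2 MuSC-cKO. The median of the 12 was -1.77 in control and -1.81 in TRF2 MuSC-cKO, where the highest value was -0.78. Between genotypes in uninjured muscle edgeR called 0 of 12, with 4 at an unadjusted p under 0.05, and limma's robust fit, limma-voom and DESeq2 called 0, 3 and 2 lower. The differences of the 12 ran from -0.61 ± 0.19 for Dnajb1 (adjusted p = 0.0491) to 0.088 ± 0.19 for Hspb1, with a median of -0.17. The 4 under 0.05 were Dnajb1, Hspa8 (-0.60 ± 0.19), Hsp90ab1 (-0.60 ± 0.20) and Hsp90aa1 (-0.47 ± 0.20), all lower in TRF2 MuSC-cKO, in the fit where Fos was at -0.72. At 3 DPI edgeR, limma's robust fit, limma-voom and DESeq2 called 0 of 12, with 4 at an unadjusted p under 0.05 by edgeR and a median of -0.48, beside 4 of the 10 genes and a median of -0.46. The uninjured sums of the MuSC markers were lower in TRF2 MuSC-cKO, with 7 of 10 markers called lower by edgeR, 3 by limma's robust fit, 8 by limma-voom and 7 by DESeq2. By edgeR 2.63% of all genes tested were called lower in that comparison. The part of the heat shock response, of the release of cells and of the marker levels in the values of the 10 genes was not tested.

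**Figure D5:**
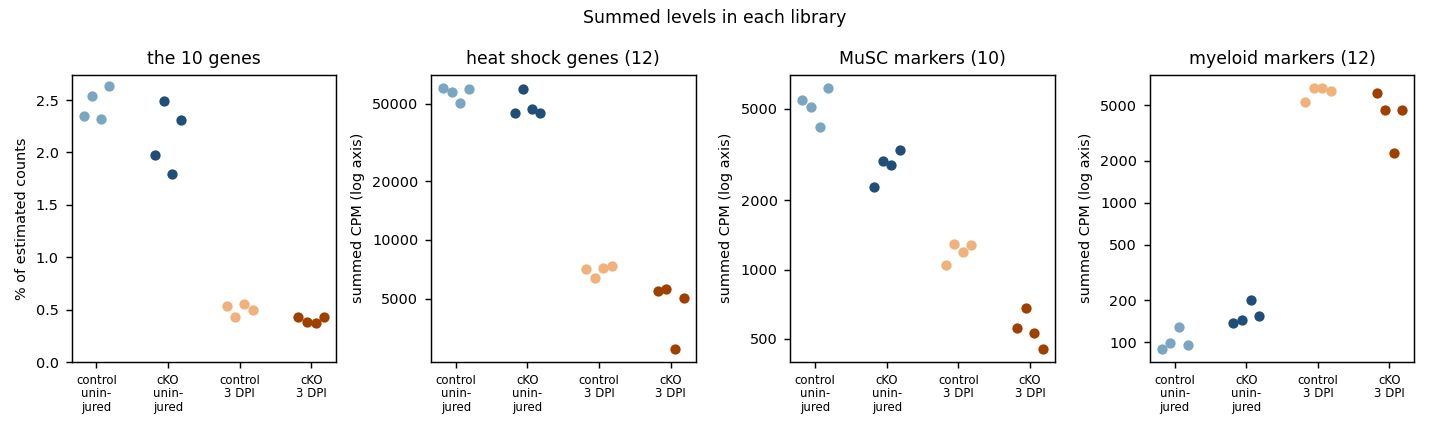
Share of all estimated counts taken by the 10 genes (left, in percent from 0) and summed CPM of the heat shock genes, the MuSC markers and the myeloid markers (log axes) in each of the 16 libraries, 4 per group. The shares of the 10 genes and the sums of the heat shock genes and MuSC markers are lower at 3 DPI and the myeloid sums are higher, with no overlap between uninjured and injured libraries.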

How the data were processed

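RNA of sorted MuSCs, 16 libraries in 4 groups of 4, was made into libraries with the CORALL kit after depletion of ribosomal RNA. Per the submitters' processing notes the tools included Trim Galore 0.6.7, STAR 2.6.1d and Salmon 1.5.2, with builds GRCm38 and mm10. The authors deposited estimated counts per gene, not normalized, and a second table of expected counts scaled by transcript abundance, used for levels per length and as an alternative. The kit adds unique molecular identifiers. Whether they were used in counting, the annotation release and the strand setting are not given in the sources used here. Groups came from the sample records.

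Estimated counts were rounded, filtered with filterByExpr, scaled by TMM and tested with edgeR 4.0.16 (robust quasi-likelihood test, Benjamini-Hochberg adjustment over all genes tested) in R 4.3.3, on the 8 libraries compared, and on all 16 for the difference between genotypes in the change with injury. A gene was called where the adjusted p was under 0.02 and the change over 1.5-fold, the thresholds of the paper. The standard error is the fold change divided by the root of the test statistic. Deviations used log2 CPM with a prior count of 2. Alternatives were limma 3.58.1 (robust fit and voom), DESeq2 1.42.0, other scalings, filters, designs and trend corrections (lowess span 0.3), and each library left out. The procedure was tested on simulated data.

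The members and lists were chosen with earlier results of these data known. All 10 genes are named, with Terf2. Of each other list, the called genes with the largest changes, at most 5 per comparison, are named; list members described beyond these were chosen after their values were seen. Some genes that this rule would name are not reported here. Positions are from GENCODE M21 (23376 genes matched, 95.76%), promoters from RefSeq. Replicate numbers did not pair libraries (16 same-number pairs, r from -0.10 to 0.12). Replicates differed by more than sampling noise (lowest chi-square over expectation 2.97).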

Additional observations from a re-analysis of the deposited data

Results flagged for a closer look

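Among 40 groups of 4 libraries (10 genes in 4 groups), 4 held a library that stood far above the others of its group. With a rule that chance alone meets in about 1 in 20 groups, some such values are to be counted on. In uninjured control MuSCs replicate 4 was highest for Junb at 4146 CPM, for Jund at 1507 CPM and for Ier2 at 647 CPM. This is the control library whose record code differs from the other 3 uninjured controls. In control MuSCs at 3 DPI replicate 3 was highest for Dusp1 at 716 CPM, while the other 3 libraries lay between 432 and 434 CPM. No library of either TRF2 MuSC-cKO group was set apart in this way for any of the 10 genes.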

How the results depend on the processing

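The 7 falls with injury in control held in all 21 alternatives, and in TRF2 MuSC-cKO in all but the fit with the record code as a term, where 6 held (Fosb lost). The codes JH135 and JH134 occur only in uninjured libraries and JH133 only at 3 DPI. With the code as a term the injury comparison therefore rests on JH140 in control and JH139 in TRF2 MuSC-cKO, each with 1 uninjured and 2 injured libraries. That fit is thus a weak check. The rise of Atf3 was the only call upward, and the number of rises was 0 with limma's robust fit, all 16 libraries in 1 fit, the record code as a term and the abundance-scaled table, and 0 to 1 when 1 library was left out. In uninjured muscle the 2 genes called lower by genotype became 0 with limma's robust fit, all 16 libraries in 1 fit and the abundance-scaled table, 1 with library size alone, the length trend removed and the record codes JH135 and JH134 only (chosen after seeing the data, as was JH133 only at 3 DPI), and 1 to 2 when 1 library was left out, where Fos was the gene lost. With the replicate number as a replicate block the 2 calls remained; the block changed no other call of the 10 genes. The numbers do not pair the libraries (in 3 of the 16 same-number pairs over 4 comparisons the correlation was higher than with any other number).

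Some values that were not called changed sign. Dusp1 with injury in control was -0.055 with limma's robust fit and -0.11 to 0.19 when 1 library was left out. By genotype in uninjured muscle, library size alone gave 0.034 for Jun and 0.18 for Jund, at least 10 counts in every library gave 0.065 for Jund, and leaving out 1 library gave -0.13 to 0.078 for Jund. At 3 DPI Fosb was -0.044 with no filter and -0.072 to 0.14 when 1 library was left out. In the difference of the changes Egr1 was -0.091 with library size alone, -0.023 with no filter and -0.12 to 0.27 when 1 library was left out, Fos was -0.020 with the record code as a term, and removing the length trend gave 0.14 for Junb, 0.043 for Ier2, 0.11 for Klf4 and a median of 0.12 for the 10. The cause was not tested in these cases. Genes called in all ranged over the alternatives from 1485 to 3344 (3104 in the report) with injury in control, 37 to 1316 (589) in TRF2 MuSC-cKO, 17 to 595 (452) by genotype in uninjured muscle, 0 to 28 (0) at 3 DPI and 0 to 123 (3) for the difference of the changes. The highest count in TRF2 MuSC-cKO came without replicate 3 at 3 DPI, and leaving out any other library gave 358 to 439. Library size alone moved the median of all genes from 0.066 to 0.23 with injury in control and from 0.058 to 0.24 by genotype in uninjured muscle. The record code could not be fitted as a term in uninjured muscle, where it is confounded with genotype. The fit of the record codes JH135 and JH134 only cannot separate them either. Depth of 620506 to 1351130 estimated counts gave each gene enough counts to be tested, and intervals rest on 4 libraries per group.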
